A study of Mus musculus with 2 samples.

Results

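Alveolar fibroblasts are the matrix cells of the gas-exchange septum of the lung, and 539 of 28280 kept cell barcodes in 2 single-cell libraries met the rule for them. The rule asked for at least 500 unique molecular identifiers (UMIs, tags that count each captured transcript once), 200 genes and at most 20% mitochondrial UMIs. It then asked for at least 3 UMIs over Col1a1, Col1a2, Col3a1, Mfap4 and Dcn and for at least 2 of Npnt, Tcf21, Inmt and Pdgfra. Pi16 and Col14a1, Ptprc, Cdh5, Upk3b and Myh11 had to be at 0, Def8 below 20 UMIs, and S100a8 with S100a9 below 3% of UMIs. The members were thus chosen by their measured counts of these genes, so those genes are given below as a description. The 1V209-Cho-Lip library held 335 of these cells and the PBS library 204.

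Both libraries came from lungs of female Balb/C mice with orthotopic K7M2 osteosarcoma, a mouse bone tumour that spreads to the lung. One group was treated with 1V209-Cho-Lip, a TLR7 agonist nanomedicine by the series' title, and the control group with PBS, a salt buffer. Lungs of 3 mice were pooled per library and profiled with 10x Genomics chemistry, so each group is 1 sample without replicates. No dose, schedule or age is given in the sources used here. The comparison asks what differed in these fibroblasts between the treated and the control lungs. With 1 library per group no test was possible, and a treatment response and any other difference between the libraries cannot be told apart.

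Alveolar fibroblasts lie against alveolar type 2 cells and capillaries, store lipid and retinoids, and supply growth factors that maintain the alveolar epithelium. They lay down elastin and collagen that carry the recoil of the septum. In inflamed lungs fibroblasts are known to take part in chemokine, IL-6 and acute-phase protein production, and immediate-early genes of the AP-1 family respond within minutes to many stimuli, cell isolation included. Toll-like receptor 7 senses single-stranded RNA in endosomes and signals through MyD88 to NF-kB and interferon regulatory factors, mainly in plasmacytoid dendritic cells, other myeloid cells and B cells.

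The markers fixed for the label were present, and since most of them chose the cells this is a description. Inmt, a methyltransferase gene, stood at 9069.9 CPM (the gene's UMIs per 1000000 UMIs summed over the member cells) in the 1V209-Cho-Lip library and at 9494 CPM in the PBS library. Mfap4, a microfibril-associated gene, stood at 3380.1 and 5835 CPM, and Npnt, the integrin ligand nephronectin, at 1345 and 2022 CPM. Pdgfra, the receptor of platelet-derived growth factor A, stood at 1141 and 1542 CPM, and Tcf21, a mesenchymal transcription factor, at 1062 and 698 CPM. In B cells of the same libraries Inmt was at 32.5 and 50.4 CPM. All 4 markers of the rule were found in 67.5% of treated and 56.4% of PBS members, and exactly 2 in 13.1% and 14.2%. Members with exactly 2 markers held Inmt at 7809 and 5065 CPM. The 37 treated and 55 PBS barcodes that missed the rule only for having fewer than 2 held it at 1356 and 975 CPM. Inmt is itself among the counted markers, so this difference follows in part from the rule and is no support for it. The other edge of the rule lay at the matrix minimum, where 156 and 59 barcodes missed only the 3 UMIs and held Inmt at 3653 and 1284 CPM.

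Treated members were deeper, with a median of 3040 UMIs (quartiles 1807 and 4680.5) and 1541 genes. PBS members had a median of 2563.5 UMIs (quartiles 1248.25 and 3952.5) and 1367.5 genes. The median mitochondrial share was 1.14% in treated and 1.33% in PBS members. Members held 1169805 and 598487 UMIs in all. The libraries shared 268 barcodes, and no barcode was a member in both. A doublet caller marked 10 treated and 9 PBS members. RNA of other cells was present too, at levels that differed between the libraries. Alveolar type 2 markers had the highest sum at 5183 and 8907 CPM, with 3497 of 6063 treated and 3298 of 5331 PBS UMIs in 1 cell each. Club and airway markers stood at 1073 and 1778 CPM, alveolar type 1 markers at 259.9 and 633 CPM, and macrophage and monocyte markers at 659 and 1272 CPM. Adventitial fibroblast markers stood at 1069 and 969 CPM, smooth muscle and myofibroblast markers at 539 and 373 CPM, and endothelial markers at 296 and 249 CPM. Pan-leukocyte markers stood at 315 and 635 CPM, red blood cell markers at 245 and 588 CPM, pericyte markers at 119.7 and 177 CPM, and markers of the tumour cluster at 57.3 and 119 CPM. T, NK and B cell markers (18 and 83.5 CPM) and mesothelial markers (23.1 and 30.1 CPM) were lowest. Neutrophil markers were the list that differed most: 725 CPM in treated members with all 12 genes found, and 129 CPM in PBS members with Cxcr2, Mmp9, Ly6g and Wfdc21 at 0. Neutrophils by a fixed gate made up 35.9% of the kept barcodes of the treated library and 10.9% of those of the PBS library. Scaled by S100a8 and S100a9, neutrophil RNA came to 0.449% of treated and 0.104% of PBS member UMIs.

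Alveolar fibroblasts made up a larger share of the treated library. They were 335 of 13720 kept barcodes, 2.44% (exact Clopper-Pearson 95% interval 2.19 to 2.71%), against 204 of 14560, 1.40% (1.22 to 1.61%), a ratio of 1.74 (1.46 to 2.08). All intervals here are 95% and cover counting error only, not variation among mice or libraries. The gene intervals below treat each UMI as independent, so they also leave out variation among member cells. Among barcodes without a Ptprc UMI and with under 3% S100a8 and S100a9 UMIs the shares were 7.46% and 4.03%, a ratio of 1.85 (1.55 to 2.21). Outside the neutrophil gate they were 3.81% and 1.57%, a ratio of 2.42 (2.03 to 2.90). Adventitial fibroblasts, the Pi16- or Col14a1-bearing cells around vessels and airways, made up 0.496% and 0.515% of kept barcodes, pericytes 0.401% and 0.385%, and general capillary endothelial cells 4.52% and 4.24%. The share of a cell type in a dissociated tissue also depends on how many cells of each kind were released, which was not measured.

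Gene levels in the members were mostly close between the libraries. Of 7147 genes with at least 30 UMIs over both libraries, 513 (7.18%) were at least 2-fold higher and 177 (2.48%) at least 2-fold lower in the treated library by CPM, and the median log2 ratio was -0.02. These shares are the background for each list count given below, where "higher" and "lower" mean at least 2-fold. Acute-phase and IL-6 family genes, immediate-early genes, glucocorticoid-responsive genes and NF-kB genes had the highest list medians, and basement membrane genes and type I interferon-stimulated genes were among the lowest. Fibrillar collagens had a lower median still, but 3 of the 5 measured are genes of the selection rule, so their place in this order is a description. Some genes sit on more than 1 list, such as Cebpd and Lcn2, which are on the acute-phase and the glucocorticoid list.

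**Figure D1:**
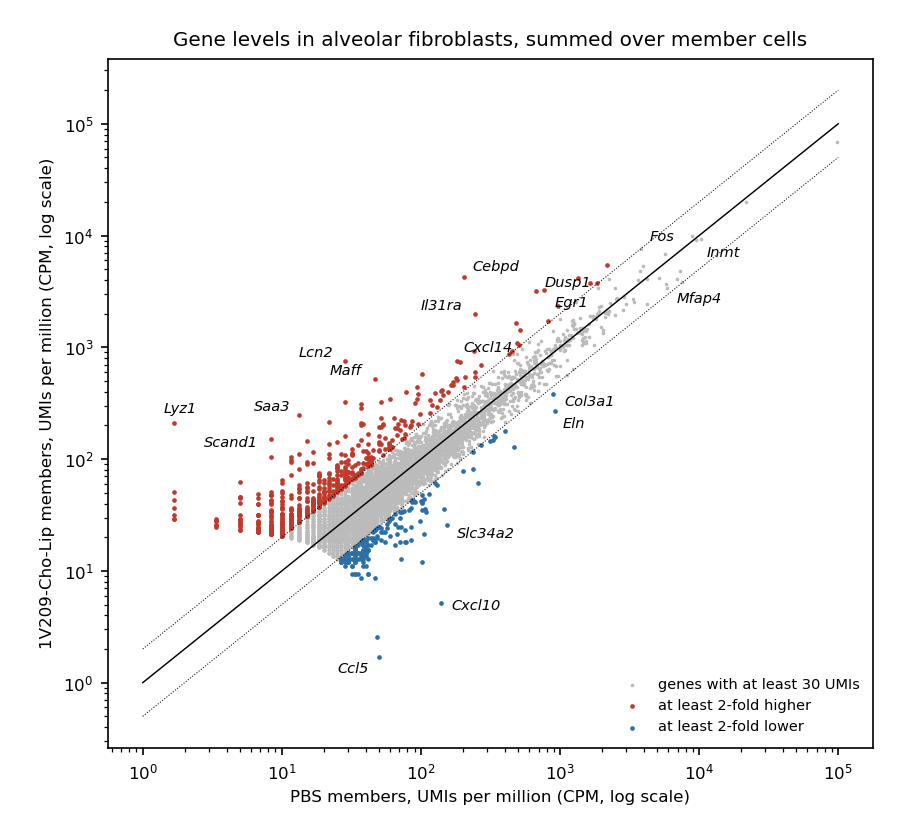
Level of each gene in alveolar fibroblasts of the PBS library (x axis) and the 1V209-Cho-Lip library (y axis) in CPM, both on log scales; each point is a gene with at least 30 UMIs over both libraries and at least 1 in each. The solid line marks equal levels and the dotted lines 2-fold differences; 513 genes counted higher (red; genes at 0 in PBS are not drawn) and 177 lower (blue), with Cebpd at 4254 against 206 CPM and Eln at 269 against 914 CPM.

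**Figure D2:**
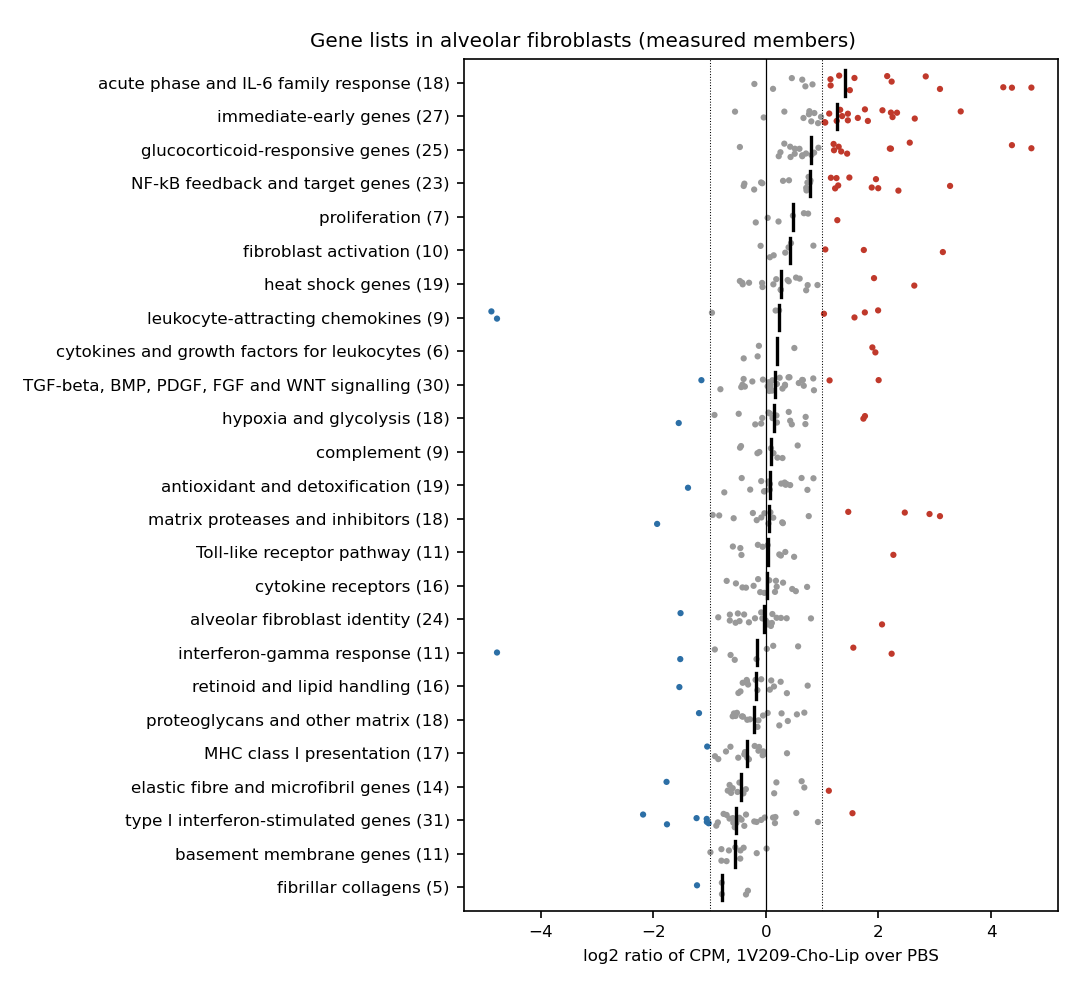
log2 ratio of CPM, 1V209-Cho-Lip over PBS, for every measured member of 25 gene lists in alveolar fibroblasts; the number of measured members stands after each list name, black bars are list medians, and dotted lines mark 2-fold (red and blue points lie beyond them). The acute-phase list has a median of 1.40 and the immediate-early list 1.26, and the fibrillar collagen list, 3 of whose 5 genes are in the selection rule, lies at -0.78.

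Genes that mark alveolar fibroblasts lay mostly within 2-fold between the libraries. Each member had to hold at least 2 of Npnt, Tcf21, Inmt and Pdgfra. Cells that had lost these markers would thus not be seen here, and likeness in other identity genes may follow in part from the rule. Of 24 measured identity genes 1 was higher and 1 lower, with a median log2 ratio of -0.03. Fmo2, a flavin monooxygenase gene, stood at 4856 CPM in treated and 3756 CPM in PBS members (ratio 1.29, 1.23 to 1.36). Limch1, which codes for an actin-binding regulator, stood at 2711 and 3337 CPM (ratio 0.812), and Macf1, a microtubule-actin crosslinker, at 3699 and 5758 CPM (0.642). The epithelial growth factors of these cells lay near 1: Fgf10 at 167 and 154 CPM (1.08, 0.842 to 1.41), Fgf7 at 188 and 187 CPM and Wnt2 at 179 CPM in both. Tbx4, a lung mesenchyme transcription factor gene, had a ratio of 1.74 (1.35 to 2.28), and Itga8, the integrin subunit that binds nephronectin, 0.709 (0.651 to 0.773).

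The identity gene past the fold upward was Cxcl14, a chemokine gene, at 762 CPM in treated and 182 CPM in PBS members (ratio 4.18, 3.42 to 5.15). With every cell thinned to 1000 UMIs, 31.8% of treated and 13.8% of PBS members held a Cxcl14 UMI, against 0.156% and 0.233% of B cells thinned alike. In adventitial fibroblasts Cxcl14 stood at 936 and 71.4 CPM. The gene past the fold downward was Enpp2, the autotaxin gene, with 13 and 19 UMIs (0.350, 0.159 to 0.747).

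Acute-phase genes differed most. Of 18 measured genes of the acute-phase and IL-6 family response, 12 were higher and none lower, with a median log2 ratio of 1.40. Cebpd, which codes for the transcription factor C/EBP delta (chromosome 16, 15887286 to 15891031 on mm10), stood at 4254 CPM in treated and 206 CPM in PBS members (ratio 20.7, 17.3 to 25). At 1000 UMIs per cell 83.3% of treated and 14.4% of PBS members held a Cebpd UMI, so the higher level was spread over most of the cells. In B cells, taken as background with median depths of 2710 and 2167 UMIs, those shares were 6.89% and 0.465%, and in general capillary endothelial cells 56.0% and 10.2%.

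Lcn2, the gene of the siderophore-binding protein lipocalin 2, stood at 747 and 28.4 CPM (ratio 26.3, 16.3 to 45.4). A Lcn2 UMI was found in 13.4% of treated and 1.80% of PBS members at 1000 UMIs, against 6.10% and 1.78% of B cells, taken as background. The treated members lay above that share, and the PBS members were close to it. All other kept barcodes together held Lcn2 at 718 and 94.5 CPM, so the treated member level was close to theirs. Of 874 treated Lcn2 UMIs 244 lay in 1 cell, and with the top cell left out of each library the ratio was 32.2. Neutrophils carry Lcn2 too, and their RNA, scaled by S100a8 and S100a9, would bring 8.84 of the 747 CPM.

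Saa3, the serum amyloid A gene of extrahepatic tissues, stood at 249 and 13.4 CPM (ratio 18.6, 9.32 to 43.5), and all 8 PBS UMIs lay in 1 cell. It was found in 5.35% of treated members at 1000 UMIs and 0.599% of PBS members, against 2.35% and 0% of B cells. All other kept barcodes together held Saa3 at 220 and 4.99 CPM, so the treated member level was close to theirs. In adventitial fibroblasts of the treated library Saa3 was at 6199 CPM, far above the alveolar level, and at 3.10 CPM in PBS, a single UMI. Saa1 was found in 42 UMIs against 0, 29 of them in 1 cell, at least 7.16-fold higher with a floor of 3 counts over the PBS members.

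The stretch from 250 to 51 bases before the RefSeq start of Saa3 (chr7:46715727-46715926, minus strand) and of Lcn2 (chr2:32387790-32387989, minus strand) is shown because C/EBP proteins are known to act on both genes and Cebpd was the most abundant gene past the 2-fold line among them. Sequences are from RefSeq on GRCm38.p6, 5′ to 3′ along the gene, and capitals mark matches to a C/EBP half-palindrome (TTGCNNAA on either strand) and, in Saa3, to the interferon-stimulated response element (GAAA, any 2 bases, GAAA, on either strand).
Saa3: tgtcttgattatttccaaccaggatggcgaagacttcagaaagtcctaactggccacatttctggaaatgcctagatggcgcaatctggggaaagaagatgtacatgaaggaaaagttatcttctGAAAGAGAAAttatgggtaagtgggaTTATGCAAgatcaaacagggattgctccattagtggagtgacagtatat
Lcn2: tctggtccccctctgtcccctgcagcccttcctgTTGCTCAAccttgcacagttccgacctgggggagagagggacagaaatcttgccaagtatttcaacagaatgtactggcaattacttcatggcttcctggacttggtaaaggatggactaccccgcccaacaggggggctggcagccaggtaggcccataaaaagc
The C/EBP letters were TTATGCAA in Saa3 and TTGCTCAA in Lcn2, and 8.11% of 32851 promoter stretches of this length hold such a match. Of the 14 acute-phase genes with an entry in the table, 5 (Cp, Lcn2, Saa1, Saa3 and Steap4) had it, against 9.23% of 27025 genes. A match describes letters and is no evidence of binding.

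Genes around IL-6, taken from the cytokine, acute-phase and receptor lists, are given next for their roles and were not counted as a list. Il6, the ligand, stood at 192 CPM in treated and 51.8 CPM in PBS members (ratio 3.71, 2.54 to 5.59), and 12.0% and 1.2% of members held an Il6 UMI at 1000 UMIs. Stat3, the transcription factor that relays IL-6 signals, stood at 542 and 244 CPM (2.22, 1.85 to 2.68), and Socs3, its feedback inhibitor, at 602 and 244 CPM (2.47, 2.06 to 2.97). Pim1, a kinase gene of the same pathway, had a ratio of 4.46 (3.07 to 6.69), and Serpina3n, an acute-phase protease inhibitor, stood at 533 and 179 CPM (2.98, 2.42 to 3.69). The receptors differed less: Il6ra had a ratio of 1.66 (1.2 to 2.35), Osmr 1.45 (1.16 to 1.81) and Il6st, the shared signal chain gp130, 0.910 (0.707 to 1.18). Of 16 measured cytokine receptor genes none was higher or lower, with a median log2 ratio of 0.02.

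Immediate-early genes, which code for transcription factors and feedback proteins switched on within minutes of a stimulus, formed the largest group of higher genes. Of 27 measured members 17 were higher and none lower, with a median log2 ratio of 1.26. Egr1, a zinc finger transcription factor, stood at 3231 CPM in treated and 769 CPM in PBS members (ratio 4.20, 3.82 to 4.64). Dusp1, a phosphatase that switches off MAP kinases, stood at 3158 and 677 CPM (4.67, 4.21 to 5.18), and Jun at 4166 and 1342 CPM (3.10, 2.88 to 3.35). Fos, the AP-1 partner of Jun, was the most abundant at 7570.5 and 3836 CPM, with a ratio of 1.97 (1.88 to 2.07). Maff, a small Maf factor gene, had the highest ratio of the list at 515 and 46.8 CPM (11.0, 7.55 to 16.7). Dusp6 (0.975) and Gadd45g (0.685, 0.498 to 0.945) were the list's members below 1.

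Members spread widely in these genes. At 1000 UMIs per cell a treated member held a median of 28 immediate-early UMIs, with quartiles at 6 and 68.5, and a PBS member 9, with quartiles at 4 and 22. The lower quartiles thus lay close together, and the distance grew toward the upper end, to 105.1 and 54.7 at the 95th percentile. Acute-phase UMIs had medians of 9 and 4 and NF-kB UMIs of 4 and 2. UMIs of the alveolar identity genes were 25 and 28. Thinning used 299 treated and 167 PBS members and left out 36 and 37 shallower cells.

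**Figure D3:**
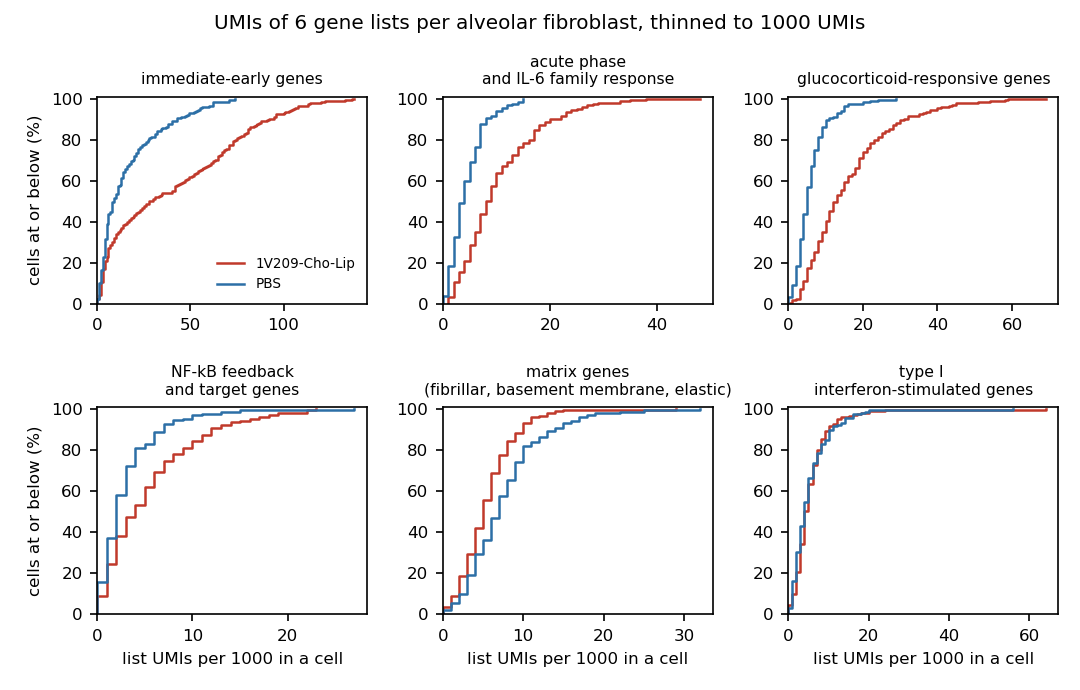
Cumulative share of alveolar fibroblasts (y axis, percent) at or below a number of UMIs of each of 6 gene lists (x axis, list UMIs per 1000 UMIs of the cell) in the 1V209-Cho-Lip library (red, 299 cells) and the PBS library (blue, 167 cells). The treated curves lie to the right for immediate-early genes (medians 28 and 9), acute-phase genes (9 and 4), glucocorticoid-responsive genes (13 and 5) and NF-kB genes (4 and 2), to the left for matrix genes (5 and 7), and overlap for interferon-stimulated genes (4 and 4). The matrix sum joins the fibrillar, basement membrane and elastic lists. It includes Col1a1, Col1a2 and Col3a1 of the selection rule, so that panel is a description.

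The same stretch before the start of Dusp1 (chr17:26508523-26508722, minus strand; RefSeq, GRCm38.p6) is shown because Dusp1 sits on both the immediate-early and the glucocorticoid list and was higher in each group of cells examined. Capitals mark a full cyclic AMP response element, TGACGTCA, which reads the same on both strands.
Dusp1: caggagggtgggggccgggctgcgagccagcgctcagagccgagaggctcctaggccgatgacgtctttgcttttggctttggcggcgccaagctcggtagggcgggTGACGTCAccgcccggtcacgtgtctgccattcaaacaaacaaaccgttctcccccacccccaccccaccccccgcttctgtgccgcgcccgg
Such an element stood in 0.828% of the 32851 stretches, and in 2 of the 24 immediate-early genes with an entry. Dusp1 had a ratio of 2.83 in adventitial fibroblasts, 4.23 in general capillary endothelial cells and 5.75 in B cells.

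NF-kB feedback and target genes were also higher as a group: of 23 measured, 10 were higher and none lower, with a median log2 ratio of 0.79. Tnfaip3, which codes for the ubiquitin-editing brake A20, stood at 145 and 15 CPM (ratio 9.66, 4.97 to 21.5). Ier3, an early survival gene, stood at 739 and 190.5 CPM (3.88, 3.19 to 4.76), and Tnfaip6, a hyaluronan-binding protein gene, at 509 and 182 CPM (2.80, 2.28 to 3.46). Nfkbiz, the inhibitor-family cofactor that drives secondary NF-kB targets, stood at 1098 and 493 CPM (2.23, 1.96 to 2.54). Nfkbia, the inhibitor IkB alpha, stayed below the 2-fold line at 772 and 468 CPM (1.65, 1.44 to 1.89). Of the 5 members below 1, Vcam1 (0.866, 0.721 to 1.04), Sdc4 (0.768, 0.664 to 0.890) and Csf1 (0.762, 0.514 to 1.14) lay lowest. A Tnfaip3 UMI was found in 10.7% and 1.2% of members at 1000 UMIs and in 8.35% and 4.53% of general capillary endothelial cells. In B cells the shares were 23.5% and 17.6%.

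The stretch before the start of Ier3 (chr17:35821463-35821662, plus strand; RefSeq, GRCm38.p6) is shown as the NF-kB gene with the most treated UMIs after Nfkbiz and Nfkbia, with capitals on a match to the NF-kB consensus, searched on both strands.
Ier3: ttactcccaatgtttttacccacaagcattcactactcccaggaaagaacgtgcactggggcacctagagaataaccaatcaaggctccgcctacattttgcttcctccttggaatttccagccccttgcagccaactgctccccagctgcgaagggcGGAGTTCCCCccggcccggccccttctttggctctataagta
The match stood in 3.13% of the 32851 stretches. Of the 18 genes of the list with an entry, 6 had it, against 3.58% of 27025 genes, and the list was named for this factor.

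Among chemokines and cytokines the pattern was mixed. Of 9 measured leukocyte-attracting chemokine genes 4 were higher and 2 lower, with a median log2 ratio of 0.24. That median was 0.73 by the mean of each cell's CPM, 0.83 without members holding UMIs of other cell types, 0.68 without members holding 10 or more alveolar epithelial UMIs and 1.36 without the top cell of each gene. Cxcl1, a ligand of the neutrophil receptor CXCR2, stood at 379.6 and 95.2 CPM (3.99, 3.02 to 5.35), and was found in 13.0% and 4.79% of members at 1000 UMIs against 1.25% and 1.24% of B cells. Cxcl2, another CXCR2 ligand, stood at 73.5 and 21.7 CPM (3.38, 1.88 to 6.61), but B cells held 900.2 and 423 CPM, and scaled neutrophil RNA would bring 30.5 and 7.08 CPM of the member level. Ccl7 had 99 and 17 UMIs (2.98, 1.77 to 5.32), with 46 of the treated UMIs in 1 cell. Its log2 ratio of 1.58 was below 2-fold by the mean of each cell's CPM (0.73), without the 5% of members with most UMIs (0.59) and without members holding a Dcn UMI (0.26). Ccl2, the monocyte chemokine, stood at 138 and 122 CPM (1.13, 0.851 to 1.51), but 67 of 73 PBS UMIs lay in 1 cell, and without the top cell of each library its ratio was 8.10. Cxcl12, the ligand of CXCR4, had a ratio of 1.18 (0.889 to 1.57).

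Both lower chemokine genes rest on single PBS cells. Cxcl10, an interferon-induced ligand of CXCR3, had 6 treated and 84 PBS UMIs, 78 of these in 1 cell. Ccl5 had 2 and 30 UMIs, 25 of these in 1 cell. Of 6 measured cytokine and growth factor genes 2 were higher, Il6 and Il1b, and none lower, with a median log2 ratio of 0.19. Il1b stood at 206 and 53.5 CPM (3.85, 2.66 to 5.76), while B cells held 2261 and 703 CPM and scaled neutrophil RNA would bring 78.3 and 19.4 CPM of the member level. An Il1b UMI was found in 17.4% and 5.99% of members at 1000 UMIs and in more B cells, 36.0% and 14.0%, so the member level is not read as expression. Kitl, the stem cell factor gene, stood at 195 and 212 CPM (0.918), and Tnfsf13b, which codes for the B-cell factor BAFF, at 129.9 and 144 CPM (0.904).

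Glucocorticoid-responsive genes lay mostly above 1. Of 25 measured 10 were higher and none lower, with a median log2 ratio of 0.81, and 24 had a ratio above 1. Of the 10, Cebpd, Lcn2 and Dusp1 are on other lists too. Mt1, a metal-binding metallothionein gene, stood at 3769 and 1636 CPM (2.30, 2.15 to 2.47) and Mt2 at 336 and 137 CPM (2.45, 1.93 to 3.15). Fkbp5, a chaperone of the glucocorticoid receptor and its classical target, stood at 73.5 and 31.7 CPM (2.32, 1.40 to 4.03). Other targets lay nearer to 1: Tsc22d3, the gene of the glucocorticoid-induced leucine zipper, stood at 921 and 785 CPM (1.17, 1.05 to 1.31), and Zbtb16 at 576 and 481 CPM (1.2, 1.04 to 1.38). Dbp, a clock output gene outside the list, stood at 103 and 8.35 CPM (12.4, 5.16 to 38.8), while the clock gene Per1 had a ratio of 1.43 (1.09 to 1.88).

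Of 19 measured heat shock genes 2 were higher, with a median log2 ratio of 0.27. Hspb1 stood at 322 and 51.8 CPM (6.22, 4.31 to 9.29) and Hspa1a, the inducible HSP70 gene, at 203 and 53.5 CPM (3.79, 2.61 to 5.67). The abundant chaperones Hspa8 (1.2, 1.04 to 1.39) and Hspa5, the BiP gene of the endoplasmic reticulum (0.727, 0.652 to 0.811), stayed within 2-fold.

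Type I interferon-stimulated genes were not among the higher groups. Of 31 measured 1 was higher and 6 lower, and 25 had a ratio below 1, with a median log2 ratio of -0.54. Ifi27l2a, the most abundant of those below 1, stood at 410.3 CPM in treated and 690.1 CPM in PBS members (ratio 0.595, 0.520 to 0.680). Ifit2, an antiviral RNA-binding protein gene, had 35 and 37 UMIs (0.484, 0.296 to 0.790), and Ifit3 22 and 51 UMIs (0.221, 0.127 to 0.370). Of the Ifit3 UMIs 27 lay in 1 PBS cell, without which and its treated counterpart the ratio was 0.405. Ifitm3, an abundant antiviral membrane protein gene, stood at 2482 and 2271 CPM (1.09, 1.02 to 1.17).

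The gene above the fold was Ifitm1 at 335 and 115 CPM (2.91, 2.25 to 3.81), against 411 and 11.1 CPM in B cells. Per cell, the summed interferon-stimulated UMIs had a median of 4 in both libraries at 1000 UMIs, with Ifitm3 in that sum. The list median lay between -0.59 and -0.0037 over the alternatives tried. Of the 6 lower genes none had more than 51 UMIs in a library, so each rests on few molecules.

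The stretch before the start of Ifit3 (chr19:34583279-34583478, plus strand; RefSeq, GRCm38.p6) is shown as the interferon-stimulated gene with the lowest ratio, and capitals mark matches to the interferon-stimulated response element, here on the reverse strand.
Ifit3: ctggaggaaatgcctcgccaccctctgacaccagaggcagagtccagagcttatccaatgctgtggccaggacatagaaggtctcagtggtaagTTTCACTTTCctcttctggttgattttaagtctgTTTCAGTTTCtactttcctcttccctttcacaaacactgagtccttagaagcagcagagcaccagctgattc
Of the 23 listed genes with an entry 5 held the element, against 2.82% of 27025 genes, and it stood in 2.40% of the 32851 stretches, among them that of Saa3, whose ratio lay on the other side.

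Of 11 measured interferon-gamma response genes 2 were higher and 2 lower, with a median log2 ratio of -0.16. The median had the other sign by the mean of each cell's CPM (0.079), in thinned cells (0.56) and with at least 60 UMIs per gene (0.018), so it has no stable direction. Socs1, a feedback inhibitor of cytokine signals and 1 of the higher genes, had a log2 ratio of 2.23 and of 0.74 in thinned cells. Irf1, which is induced by interferon gamma and by NF-kB, stood at 417 and 142 CPM (2.94, 2.33 to 3.74), whereas the GTPase gene Igtp had 15 and 22 UMIs (0.349, 0.168 to 0.704). Of 17 measured genes of MHC class I presentation none was higher and 1 lower, and 16 had a ratio below 1, with a median log2 ratio of -0.33. B2m stood at 1236 and 1522 CPM (0.812, 0.747 to 0.883) and H2-K1 at 730.0 and 837 CPM (0.872, 0.780 to 0.976).

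The receptor of the agonist was almost not seen in these cells. Tlr7 had 0 UMIs in 335 treated members, which allows up to 0.896% of cells with a UMI at this depth, and 2 UMIs in the PBS members. Of 11 measured genes of the Toll-like receptor pathway 1 was higher and none lower, with a median log2 ratio of 0.03. Myd88, the adaptor of TLR7, stood at 70.1 and 55.1 CPM (1.27, 0.839 to 1.97). The higher gene was Cd14, a co-receptor for bacterial lipid, with 47 and 5 UMIs (4.81, 1.92 to 15.5). Of its 40.2 and 8.35 CPM, scaled neutrophil RNA would bring 11.3 and 2.06, and B cells held 361 and 164 CPM, above the member level.

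**Figure D4:**
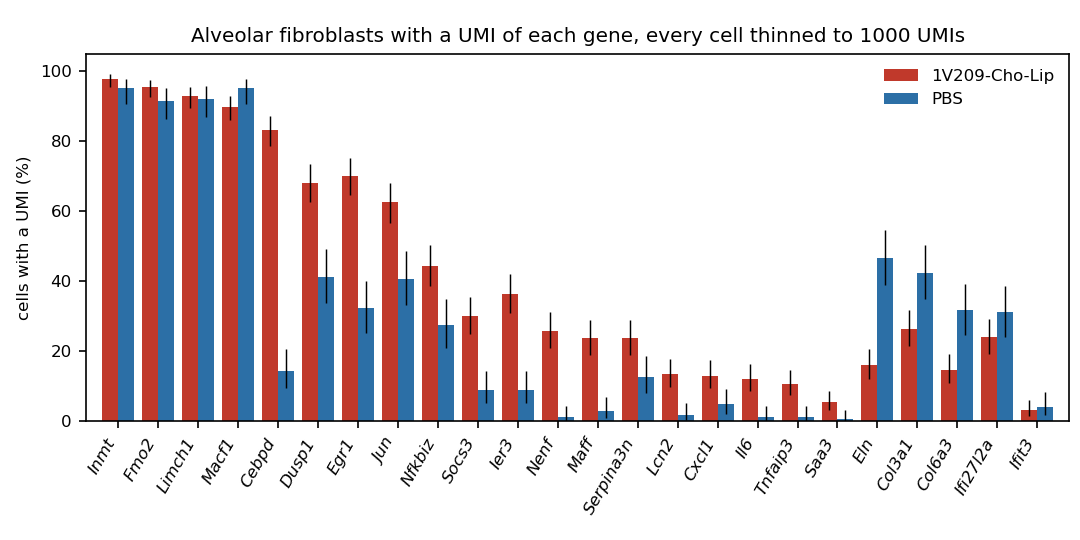
Percentage of alveolar fibroblasts with at least 1 UMI of each gene after every cell was thinned to 1000 UMIs, for the 1V209-Cho-Lip library (red, 299 cells) and the PBS library (blue, 167 cells); bars of error are exact 95% intervals for counting error. Inmt is found in 98.0% and 95.2% of members, Cebpd in 83.3% and 14.4%, Saa3 in 5.35% and 0.599%, and Eln in 16.1% and 46.7%.

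Matrix genes lay mostly below 1. Eln, which codes for elastin (chromosome 5, 134702593 to 134747323 on mm10), stood at 269 CPM in treated and 914 CPM in PBS members (ratio 0.295, 0.256 to 0.339). At 1000 UMIs 16.1% of treated and 46.7% of PBS members held an Eln UMI. The ratio of Eln was 0.283 in adventitial fibroblasts and 0.918 in general capillary endothelial cells. In pericytes it was 0.256 (0.103 to 0.561), from only 8 treated and 36 PBS UMIs. Of 14 measured elastic fibre and microfibril genes Eln was the lower one and Lox the higher one, with a median log2 ratio of -0.43. Lox, the lysyl oxidase that crosslinks elastin and collagen, stood at 443 and 204 CPM (2.17, 1.78 to 2.67). Fbn1, the fibrillin of microfibrils, stood at 179 and 279 CPM (0.640, 0.520 to 0.789).

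All 5 measured fibrillar collagen genes had a ratio below 1, with 1 past the 2-fold line and a median log2 ratio of -0.78. Col1a1, Col1a2 and Col3a1 were part of the rule, which keeps cells with their UMIs, so their levels are a description. Col3a1 stood at 385 and 897 CPM (0.429, 0.377 to 0.487), Col1a1 at 275 and 473 CPM (0.582) and Col1a2 at 498 and 635 CPM (0.784). Of those outside the rule, Col5a1 had a ratio of 0.583 (0.379 to 0.899) and Col5a2 0.802 (0.642 to 1.01).

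Of 11 measured basement membrane genes none was past the fold and 10 lay below 1, with a median log2 ratio of -0.54. The list median was -0.60 in adventitial fibroblasts and -0.62 in general capillary endothelial cells, with 2 genes lower in each. In B cells, with 4 genes measured, it was -0.01. Col4a1 stood at 245 and 398 CPM (0.617, 0.518 to 0.736), while its partner Col4a2 stood at 189 and 187 CPM (1.01). Of 18 measured proteoglycan and other matrix genes 1 was lower, Col6a3, a microfibrillar collagen chain at 177 and 403 CPM (0.439, 0.363 to 0.531), with a list median of -0.21. This list holds Npnt, a marker of the selection rule, so the list median is in part a description. Serpinh1, the collagen chaperone HSP47, stood at 315 and 607 CPM (0.520, 0.449 to 0.603). Bgn, the small proteoglycan biglycan, stood at 2794 and 2891 CPM (0.967), and Fn1, fibronectin, at 1201 and 1459 CPM (0.823). Mgp, which inhibits calcification, stood at 6849.9 and 5643 CPM, but 2313 of its 8013 treated UMIs lay in 1 cell, and without the top cells its ratio of 1.21 became 0.977.

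Of 18 measured matrix proteases and inhibitors 4 were higher and 1 lower, with a median log2 ratio of 0.06, and 3 of the higher genes were found in under 12% of members. Timp1, an inhibitor of matrix metalloproteinases, had 367 and 22 UMIs (8.53, 5.55 to 13.8), of which 273 lay in 1 treated cell, and a ratio of 4.01 without the top cells. Mmp3, the stromelysin gene, stood at 203 and 36.8 CPM (5.53, 3.57 to 9) and was found in 4.01% and 1.2% of members at 1000 UMIs against 0% of B cells thinned alike. Members with a Dcn UMI held 87.0% of the treated and 54.5% of the PBS Mmp3 UMIs. Adamts4, an aggrecanase gene, had 44 UMIs against 0, at least 7.5-fold higher with a floor of 3 counts over the PBS members. It was found in 2.99% of treated members, and 0 of 204 PBS members allow up to 1.47%. The lower gene was Mmp11 with 20 and 39 UMIs (0.262, 0.145 to 0.461).

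Dcn, one of the matrix genes of the rule and a strong adventitial gene (7462 and 9866 CPM in adventitial fibroblasts), was found in 40 treated members (11.9%) and 15 PBS members (7.35%). These cells held 16.6% and 13.8% of the member UMIs. Besides Mmp3 they held 78.7% of the treated Timp1, 83.5% of the treated Acta2 and 35.4% of the treated Cxcl14 UMIs. For 2 of these genes most of that share was 1 cell, with 273 of 367 treated Timp1 and 86 of 121 treated Acta2 UMIs. With only the top cell of each library left out, the ratios were 4.01 for Timp1 and 4.48 for Acta2. Without all members holding a Dcn UMI the log2 ratio of Timp1 was 2.04, that of Acta2 1.08 and that of Eln -2.02. The list median of the acute-phase genes was then 1.59 and that of the fibrillar collagens -1.12.

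Genes of fibroblast activation were measured in 10 of 24 cases, with 3 higher, none lower and a median log2 ratio of 0.43. Thbs1, thrombospondin 1, which can release active TGF-beta, stood at 1717 and 825 CPM (2.08, 1.88 to 2.30). Thbs1 came just below 2-fold with at least 3 of the 4 markers (log2 ratio 0.96) and without members holding UMIs of other cell types (0.91). Ccn1, a matricellular gene responsive to stretch and serum, stood at 3368 and 1875 CPM (1.80, 1.68 to 1.92), and Ccn2 at 945 and 693 CPM (1.36, 1.22 to 1.53). Acta2, the smooth muscle actin gene of myofibroblasts, had 121 and 7 UMIs (8.84, 4.16 to 22.5), 86 of them in 1 treated cell. Tnc, tenascin C, had 98 and 15 UMIs (3.34), 43 of them in 1 cell, and it was found in 1.67% of treated and 3.59% of PBS members at 1000 UMIs. The log2 ratio of Tnc was 0.067 by the mean of each cell's CPM, 0.16 in thinned cells and -0.99 without the 5% of members with most UMIs, so no direction is read from it.

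Of 30 measured genes of TGF-beta, BMP, PDGF, FGF and WNT signalling 2 were higher and 1 lower, with a median log2 ratio of 0.16. Igfbp4, which binds insulin-like growth factors, stood at 168 and 41.8 CPM (4.01, 2.64 to 6.35), and Fgfr1 at 128 and 58.5 CPM (2.19, 1.51 to 3.27). Igfbp3 stood at 59.0 and 130.3 CPM (0.453, 0.323 to 0.634), and its ratio in adventitial fibroblasts was 0.267. Fgfr1 (log2 ratio 0.95) and Igfbp3 (-0.96) lay just within 2-fold by the mean of each cell's CPM. Id3, a target of BMP signals, stood at 1399 and 894 CPM (1.57, 1.42 to 1.73).

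Of 16 measured retinoid and lipid genes none was higher and 1 lower (median -0.17). Aldh1a1, which makes retinoic acid, stood at 1644 and 1268 CPM (1.30, 1.19 to 1.41), and Lpl, lipoprotein lipase, at 24.8 and 71.8 CPM (0.345, 0.208 to 0.566). The log2 ratio of Lpl was -1.54, and -0.48, within 2-fold, in thinned cells. Of 19 measured antioxidant and detoxification genes none was higher and 1 lower (median 0.07). The lower gene, Cyp4b1, a cytochrome P450 gene, had a log2 ratio of -1.38, but 0.84 without its top cells, 1.44 with at least 6 matrix UMIs and 1.01 without members holding 10 or more alveolar epithelial UMIs. The abundant gene was Gpx3, a secreted glutathione peroxidase, at 5289 and 3918 CPM (1.35, 1.29 to 1.42). Of 9 measured complement genes none was past the fold (median 0.09): C3 stood at 722 and 488 CPM (1.48, 1.29 to 1.70) and C7 at 1087 and 1475 CPM (0.737, 0.676 to 0.804). Of 18 hypoxia and glycolysis genes 2 were higher and 1 lower (median 0.15), with Hk2 at 45.3 and 13.4 CPM (3.39, 1.6 to 8.25). Of 7 measured proliferation genes 1 was higher and 6 had a ratio above 1 (median 0.48): Ccnb2 had 33 and 7 UMIs (log2 ratio 0.86, below 2-fold, without members holding a Dcn UMI).

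Several of the highest ratios belonged to genes that were also several-fold higher in other cells. Cebpd was among them, with ratios of 17.7 in adventitial fibroblasts, 10.1 in general capillary endothelial cells and 30.1 in B cells, against 20.7 in members. In all other kept barcodes together Cebpd stood at 581 and 27.8 CPM. Lcn2 had ratios of 128 (with 3 PBS UMIs), 12.4 and 4.44 in the same groups of cells. Scand1, a SCAN domain gene, stood at 151 CPM in treated and 8.35 CPM in PBS members (18.1, 7.62 to 56.5) and at 258 and 4.34 CPM in B cells. Eif3f, a translation initiation factor subunit, had a ratio of 9.92 (5.70 to 18.9) in members, 6.92 in general capillary endothelial cells and 7.93 in B cells. Il31ra, a cytokine receptor gene, stood at 1982 and 244 CPM (8.13, 6.87 to 9.67), and at 1407 and 176 CPM in B cells. Its UMIs were found in 56.2% and 15.6% of members and 54.9% and 13.3% of B cells at 1000 UMIs, so the member level is not read as expression. C1qbp (8.41) and Mtarc2 (8.25) had B-cell ratios of 6.42 and 6.95. Nenf differed less there, with a ratio of 11.4 in members, 5.04 in general capillary endothelial cells and 4.84 in B cells. Both libraries list an identical set of 55357 gene rows and name 1 Cell Ranger version in their headers. The version of the 10x chemistry used for each library is not given in the sources used here, and a difference in library preparation cannot be told apart from treatment in these ratios.

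Among the other lowest ratios were Nrep (33.3 and 109 CPM, 0.307), Igsf10 (35.9 and 107 CPM, 0.336) and Adm, the vasodilator adrenomedullin. Adm stood at 81.2 and 237 CPM (0.342, 0.261 to 0.447), and at 329 and 161 CPM in adventitial fibroblasts. Scd2, a fatty acid desaturase (77.8 and 201 CPM, 0.388), Plxna2, a semaphorin receptor (0.403), Fam210b (0.418), Tnfrsf19 (0.429) and Ckb, brain-type creatine kinase (149 and 329 CPM, 0.452), followed. Lyz1 at the top (246 UMIs against 1) and Slc34a2, Ager and Sec14l3 at the bottom are epithelial genes found in few members: 244 Lyz1 UMIs lay in 1 treated cell, and 117 of 153 PBS Ager UMIs in 1 PBS cell. Without members holding 10 or more alveolar epithelial UMIs the log2 ratios were -0.99 for Lyz1, 0.60 for Slc34a2 and 0.30 for Ager. In thinned cells Igsf10 (-0.84), Sec14l3 (-0.84) and Tnfrsf19 (-0.76) lay within 2-fold.

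Set beside the nearest and the least related cells of the same libraries, the lists differed in how far they went, which was not tested. The immediate-early median was 1.26 in alveolar fibroblasts, 0.34 in adventitial fibroblasts, 0.87 in general capillary endothelial cells and 0.35 in B cells. The acute-phase medians in that order were 1.40, 2.04, 1.18 and 1.13, and the NF-kB medians 0.79, 0.78, 0.39 and 0.15. The interferon-stimulated medians were -0.54, 0.06, -0.46 and -0.17, over 31, 16, 44 and 47 measured genes. Genes counted as measured separately in each group of cells, so these interferon-stimulated medians are not over the same genes. Whether they would differ over shared genes was not tested. Background shares of genes at least 2-fold higher and lower were 6.66% and 4.18% in adventitial fibroblasts, 5.29% and 2.64% in capillary cells and 5.32% and 2.93% in B cells. Among single genes, Atf3, a stress-induced AP-1 relative, had a ratio of 3.39 (2.99 to 3.85) in alveolar and 0.98 in adventitial fibroblasts, Fos 1.97 and 0.880, and Irf1 2.94 and 0.713. These 3 genes were chosen after their values were seen. S100a8, a neutrophil gene limited by the rule, was higher in each of these groups of cells, with ratios of 5.67, 11.9, 6.28 and 5.41.

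**Figure D5:**
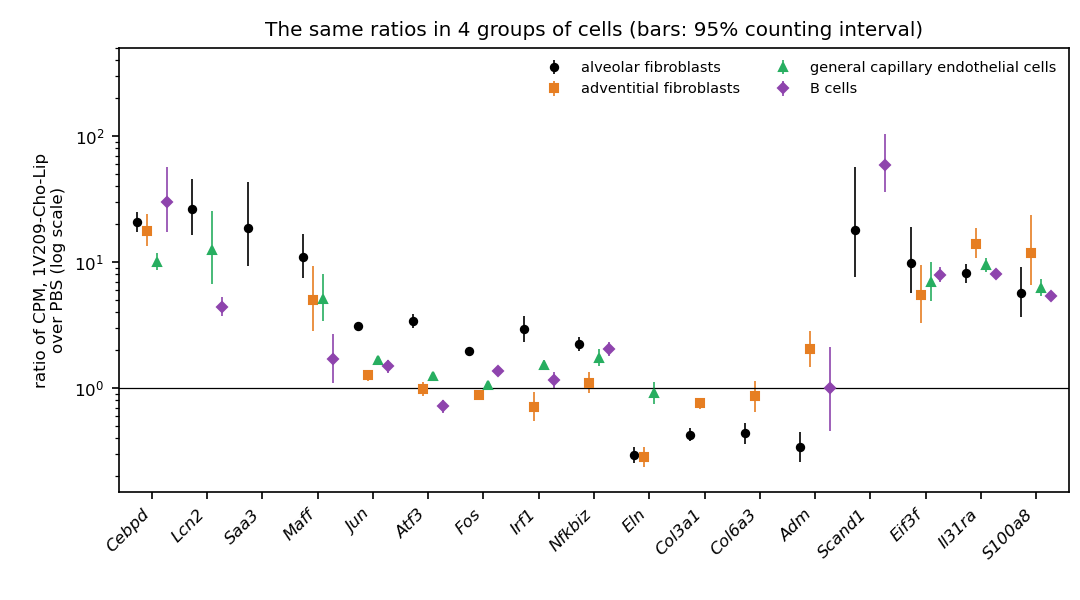
Ratio of CPM, 1V209-Cho-Lip over PBS (y axis, log scale), for 17 genes in alveolar fibroblasts, adventitial fibroblasts, general capillary endothelial cells and B cells; bars are 95% counting intervals, and a gene is drawn where the cells held at least 30 UMIs in all and more than 3 in each library. Cebpd and Il31ra lie well above 1 in each group drawn, Eln lies low in both fibroblast groups (0.295 and 0.283), and Adm lies below 1 in alveolar (0.342) and above 1 in adventitial fibroblasts (2.04).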

How the data were processed

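Single-cell RNA was profiled in 2 pooled lung libraries, 1 per group. The authors' deposited matrices hold UMI counts per gene and barcode made with Cell Ranger 9.0.1, per the file headers, on mm10, per the submitters' processing notes, with an annotation release not given in the sources used here. The libraries held 54843992 (treated) and 58156102 (PBS) UMIs. Members, gene lists and tests were chosen with earlier results of these data known. Counts were summed over members in each library, scaled to CPM and compared as ratios with exact conditional binomial 95% intervals, for genes with at least 30 UMIs over both libraries. Genes were named by rule: 15 genes at each end of the ratios, taken from those past 100 UMIs and 50 CPM, without mitochondrial, ribosomal, haemoglobin, receptor-segment and predicted genes and genes below 0.2 of the level in other cells, and from each list the members with most UMIs and the extreme ratios. Further list members were named for their role. Cells were thinned to 1000 UMIs for shares and per-cell sums. Comparison cells were gated by fixed marker counts. Doublets were called with Scrublet in Scanpy 1.11.5 (10.6% and 13.1% of kept barcodes) and kept in the main values. Positions are from GENCODE vM21 (52081 of 55357 identifiers matched). The ratios and intervals were tested on simulated independent counts, which is what the intervals assume. The simulation left out the clustering of UMIs in single cells, so it cannot show how the intervals cover in these cells. Alternatives covered scaling (including edgeR 4.0.16 TMM), weighting, rule limits, doublets and free RNA. Software was R 4.3.3, Python 3.11.15, pandas 2.3.3, scipy 1.17.1, matplotlib 3.10.9 and numpy 2.4.6.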

Additional observations from a re-analysis of the deposited data

Results flagged for a closer look

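Adm, the adrenomedullin gene, differed between cell types under the same contrast: its ratio of treated to PBS CPM was 0.342 in alveolar fibroblasts and 2.04 in adventitial fibroblasts, with counting intervals on opposite sides of 1. The difference between the 2 cell types was not tested, since each group is 1 library.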

How the results depend on the processing

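The share ratio of 1.74 lay between 1.59 and 2.42 over its alternatives, with the highest value when neutrophils were left out of the denominator. The count of genes at least 2-fold higher (513) was 216 in thinned cells, 290 with at least 60 UMIs and 1066 with at least 10 UMIs; the count lower (177) was 74, 59 and 560 in these, and 321 by the mean of each cell's CPM. The scalings by median of ratios and TMM moved the median of all genes by 0.02 and 0.09 (log2). Of the list medians under alternatives 462 stayed within the median limits of the listed genes' counting intervals, 8 moved beyond them and 4 changed sign. Sign changes were counted only for lists whose main median was not close to 0. The interferon-gamma list was 0.079 by mean cell CPM, 0.56 in thinned cells and 0.018 with at least 60 UMIs. The cytokine list was -0.26 with at least 10 UMIs. Lists close to 0 took the other sign too: Toll-like receptor (main 0.03, lowest -0.14), complement (0.09, lowest -0.05) and cytokine receptors (0.02, lowest -0.10). The same held for matrix proteases and inhibitors (0.06, lowest -0.04) and alveolar identity (-0.03, highest 0.06). Of 73 named genes past the fold, 20 did not reach it under at least 1 alternative. Setting the S100a8 and S100a9 limit to 1% or to none, or the mitochondrial limit to 10%, kept the same 335 and 204 members. Gene and list values could not change under these settings, and they are counted among those that stayed. Leaving out the 5% of members with most UMIs gave log2 ratios of -1.58 for Lyz1, 0.23 for Slc34a2 and -0.99 for Tnc. Asking for 6 matrix UMIs gave 0.040 for Ager and 1.44 for Cyp4b1, and Ch25h was -0.10 in thinned cells. Leaving out members with UMIs of other cell types gave -2.66 for Lyz1. Alternatives chosen after seeing the data left out members with 10 or more alveolar type 2 and type 1 UMIs (Ager 0.30, Cyp4b1 1.01, Lyz1 -0.99, Slc34a2 0.60), the top cell of each gene (Cyp4b1 0.84, Lyz1 -1.55), and members with a Dcn UMI. The cause of these changes was not tested. No paired analysis was possible because the labels give no replicate numbers and each group is 1 library. Genes with under about 30 UMIs cannot be compared at this depth.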
